A study of Homo sapiens with 4 samples.

Results

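The genes described here are 10 isotypes of alpha- and beta-tubulin, chosen by name from the 58243 genes listed for each library: 4 alpha genes (TUBA1A, TUBA1B, TUBA1C and TUBA4A) and 6 beta genes (TUBB, TUBB2A, TUBB2B, TUBB3, TUBB4B and TUBB6). They were measured by RNA sequencing in SH-SY5Y, an established human neuroblastoma line grown as a model of neurons. The control group was 2 libraries of untreated cells. The other group was 2 libraries of cells exposed for 8 h to sodium nitroprusside (SNP), a donor of nitric oxide, whose RNA the labels call oxidized; the dose that was sequenced is not given. The protocol for the treatment speaks of cells differentiated with retinoic acid, with no group set apart; the description of cell growth names no retinoic acid. The libraries of each group are called a and b, and paired values are given in that order.

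Microtubules are built from dimers of alpha- and beta-tubulin, and vertebrates carry several genes for each. The isotypes differ mainly in the tail at the end of the protein, where enzymes add or remove glutamate and other groups. Cells hold the amount of tubulin steady by autoregulation: when free dimers accumulate, the protein TTC5 recognises the first residues of a tubulin chain as it leaves the ribosome, and SCAPER and the CCR4-NOT complex then degrade the mRNA being translated. In neurons, microtubules fill axons and dendrites, and TUBA1A, TUBB2A, TUBB2B and TUBB3 are the isotypes most associated with neurons.

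The element that autoregulation reads lies in the first codons, so these are shown for all 10 genes. Each line gives the first 24 coding bases of 1 coding transcript (GENCODE 29), with the start codon and the next 3 codons in capitals.
TUBA1A: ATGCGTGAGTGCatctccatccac
TUBA1B: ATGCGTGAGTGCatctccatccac
TUBA1C: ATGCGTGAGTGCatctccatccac
TUBA4A: ATGCGTGAATGCatctcagtccac
TUBB: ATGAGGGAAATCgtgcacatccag
TUBB2A: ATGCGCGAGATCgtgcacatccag
TUBB2B: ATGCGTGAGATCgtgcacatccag
TUBB3: ATGAGGGAGATCgtgcacatccag
TUBB4B: ATGAGGGAAATCgtgcacttgcag
TUBB6: ATGAGGGAGATCgtgcacatccag

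After the start codon every alpha gene had an arginine, a glutamate and a cysteine codon, and every beta gene an arginine, a glutamate and an isoleucine codon. Among 19743 protein-coding genes whose annotated coding sequence begins with a start codon, the alpha order was found in 10 genes (0.0506%) and the beta order in another 10 (0.0506%). Of these 20 genes, 19 are tubulin genes and the other is MBTPS1, a protease of the Golgi. A gene counted as a match if any of its annotated coding transcripts began with the order, which need not be its main transcript. A match of codons is a description and says nothing on whether a transcript is autoregulated.

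The other end of the coding sequence is where the isotypes part. The last 54 coding bases before the stop codon are given for 4 genes with differing tails, with the in-frame glutamate codons gaa and gag in capitals.
TUBA4A: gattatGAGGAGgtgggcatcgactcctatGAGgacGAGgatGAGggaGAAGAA
TUBB: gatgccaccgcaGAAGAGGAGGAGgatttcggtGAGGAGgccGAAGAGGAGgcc
TUBB2B: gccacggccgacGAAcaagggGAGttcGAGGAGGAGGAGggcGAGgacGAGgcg
TUBB3: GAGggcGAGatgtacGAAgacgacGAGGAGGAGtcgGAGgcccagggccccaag

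The windows of 18 codons held between 6 (TUBA1C) and 10 (TUBB4B) glutamate codons over the 10 genes. TUBA4A ends in glutamate codons. TUBB3, the isotype used as a marker of neurons, is the only one of the 10 whose coding sequence ends in a lysine codon, aag. Over whole coding sequences TUBA1A and TUBA1B shared 97.2% of aligned bases, and TUBB2A and TUBB2B shared 98.2%.

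Such likeness bears on the counts. Of all 75-base stretches in the annotated transcripts of TUBB2A, 53.2% also occurred in a transcript of another gene, mostly TUBB2B; for TUBB2B the share was 50.2%. The share was lowest for TUBB4B, at 6.36%, and between 14.8% and 32.6% for the other 7, overlapping genes included. The counting of reads that fit several genes, and its use of strand, are not given in the sources used here, so the division of reads between TUBB2A and TUBB2B, and among TUBA1A, TUBA1B and TUBA1C, is uncertain.

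The libraries held between 5613144 and 8056550 counts over all genes, and 14759 genes had enough counts to be tested. Markers of the adrenergic neuroblastoma state summed to 2764 and 2835 CPM (counts scaled to library size) in control and to 2191 and 2359 CPM in SNP libraries, with 9 of 10 genes counted and TH at 0 in all 4 libraries. The 7 genes of the mesenchymal-type state summed to 408 and 428 CPM in control and 312 and 315 CPM in SNP libraries. The 4 genes that respond to retinoic acid summed to between 4.93 and 7.30 CPM, with CYP26A1 at 0 throughout. Of 4 markers of other cells, PTPRC and HBB were at 0 in all libraries, ALB was counted once, in SNP library b, and EPCAM was counted 10, 10, 5 and 13 times. Both the adrenergic and the mesenchymal sum were lower in SNP libraries, but the adrenergic genes went both ways, with 5 of 9 tested lower and 3 higher (HAND2, CHGA and CHGB), and DBH alone moved from a mean of 673 to 259 CPM. Of the mesenchymal-type genes 1 of 5 tested was lower, VIM, and 0 were higher. Over all genes tested the shares were 12.6% lower and 13.6% higher. The part of these markers in the tubulin results was not tested, and fewer cells of a kind cannot be told apart from less RNA per cell.

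Tubulin mRNA was lower after SNP for most of the isotypes. Of the 10 isotypes, 8 were lower, 1 (TUBB6) did not pass the test and 1 (TUBA4A) had too few counts to be tested. Of all genes tested, 12.6% were lower at the same threshold, an adjusted p under 0.05 in edgeR's quasi-likelihood test. In each of the 8 genes both SNP values lay below both control values, which was so for 32.3% of all genes tested. The median log2 fold change was -1.01 over the 9 tested isotypes and -0.0042 over all genes tested. Of the isotypes, 5 both passed the test and fell by at least 1 on the log2 scale, as did 1.67% of all genes tested.

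TUBA1B (ENSG00000123416; chromosome 12, 49127782 to 49131397, minus strand; all positions are of GRCh38 from GENCODE 29) encodes the alpha isotype found in most dividing cells. Its levels were 927 and 871 CPM in control and 321 and 309.6 CPM in SNP libraries. Replicates were close and the groups far apart, a log2 fold change of -1.51 (SE 0.0894; edgeR adjusted p = 6.2e-10), or 2.85-fold lower. Only 0.42% of all genes tested had a lower fold change. The gene shares 1309 exonic bases with AC011603.2 on the opposite strand, which had at most 20 counts in any library.

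TUBA1A (ENSG00000167552; chromosome 12, 49184796 to 49189324, minus strand) encodes the main alpha isotype of young neurons, and its mutation disturbs the layering of the cortex. It was at 507 and 493 CPM in control and at 253 and 215 CPM in SNP libraries. The groups did not overlap, and the log2 fold change was -1.10 (SE 0.0979; edgeR adjusted p = 1.1e-07).

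TUBA1C (ENSG00000167553; chromosome 12, 49188736 to 49274603, plus strand), another alpha gene of the same cluster, was far less counted. Its levels were 20.7 and 18.8 CPM in control and 8.69 and 9.08 CPM in SNP libraries. The fall was of like size, with a log2 fold change of -1.15 (SE 0.208; edgeR adjusted p = 3.5e-04). TUBA1C and TUBA1A share 490 exonic bases on opposite strands.

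TUBA4A (ENSG00000127824, chromosome 2, 219249711 to 219278170, minus strand) encodes no final tyrosine, alone among the listed alpha genes. It was counted 2 times in each control library and 3 and 1 times in SNP libraries. All values were at or under 3 counts, so no fold is given. Its neighbour STK16, which shares 627 exonic bases with it, had between 52 and 74 counts.

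Among the beta genes, TUBB (ENSG00000196230; chromosome 6, 30720201 to 30725426, plus strand), the class I isotype of most tissues, was the most counted member. It was at 1314 and 1125 CPM in control and at 617 and 591 CPM in SNP libraries. The lowest control value was well above the highest SNP value, and the log2 fold change was -1.01 (SE 0.0915; edgeR adjusted p = 1.2e-07), or 2.02-fold lower.

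TUBB3 (ENSG00000258947; chromosome 16, 89921392 to 89938761, plus strand), the class III isotype of neurons, fell by a similar amount. Control libraries had 149.7 and 152 CPM, and SNP libraries 69.4 and 75.6 CPM. The log2 fold change was -1.06 (SE 0.108; edgeR adjusted p = 7.3e-07). It shares 1584 exonic bases on the same strand with the readthrough gene AC092143.1, which was counted between 6 and 22 times per library against 551 to 971 for TUBB3.

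TUBB4B (ENSG00000188229; chromosome 9, 137241213 to 137243707, plus strand), a broadly used class IV isotype also found in cilia, was at 117.5 and 129 CPM in control and at 72.8 and 77.9 CPM in SNP libraries. Its log2 fold change was -0.71 (SE 0.111; edgeR adjusted p = 8.1e-05).

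The 2 class II genes are neighbours on the short arm of chromosome 6. TUBB2A (ENSG00000137267; 3153669 to 3157526, minus strand) was at 28.5 and 35.5 CPM in control and at 21.15 and 13.0 CPM in SNP libraries. Its replicates spread widely within each group, and the log2 fold change was -0.90 (SE 0.202; edgeR adjusted p = 0.00223). Without SNP library b the fall was -0.59 and without SNP library a it was -1.30.

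TUBB2B (ENSG00000137285; 3224261 to 3231730, minus strand) showed the smallest difference of the 8 that passed. It shares 174 exonic bases on opposite strands with PSMG4, which was counted between 372 and 513 times per library. The log2 fold change of PSMG4 was -0.069 (edgeR adjusted p = 0.724). For TUBB2B, control libraries had 161 and 154 CPM and SNP libraries 127.5 and 118 CPM. Its log2 fold change was -0.36 (SE 0.103, edgeR adjusted p = 0.0132). The call did not hold when control library a (adjusted p = 0.15) or control library b (0.067) was left out, nor with corrections for length and GC content.

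TUBB6 (ENSG00000176014; chromosome 18, 12307669 to 12344320, plus strand), the class V isotype, was at 8.02 and 7.10 CPM in control and at 8.18 and 6.87 CPM in SNP libraries. The groups overlapped and the log2 fold change was -0.0086 (SE 0.272; edgeR adjusted p = 0.985). With between 40 and 65 counts per library, the standard error leaves room for a change of moderate size in either direction. TUBB6 shares 837 exonic bases on opposite strands with AFG3L2, a mitochondrial protease subunit whose own log2 fold change was 0.32 (edgeR adjusted p = 0.0411).

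**Figure D1:**
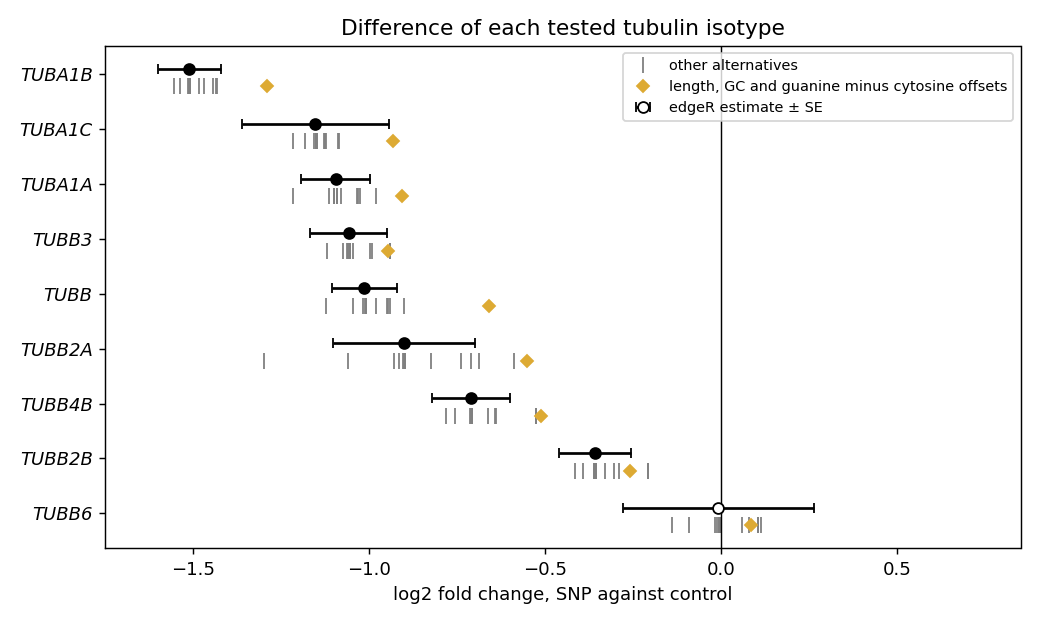
Log2 fold change of each tested isotype, SNP against control (x axis). Circles are edgeR estimates with their standard error, filled where the adjusted p was under 0.05; grey ticks are the other processing alternatives and diamonds the correction for length, GC and guanine minus cytosine content. TUBA1B lies farthest from 0 at -1.51 and TUBB6 at -0.0086.

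To compare levels between genes, the deposited TPM was used, which divides counts by the summed exon length of each gene and scales every library to the same total. In control libraries the order was TUBB (1707 ± 165 TPM, mean ± SD, n = 2 throughout), TUBA1B (1182 ± 36.0), TUBA1A (688 ± 3.99), TUBB2B (338 ± 6.35), TUBB4B (275 ± 22.2), TUBB3 (160.4 ± 4.11), TUBB2A (87.3 ± 14.6), TUBA1C (20.1 ± 1.05), TUBB6 (8.63 ± 0.625) and TUBA4A (0.383 ± 0.0432). No neighbours in this order overlapped in their control values. By mean TPM in control, TUBB ranked 22, TUBA1B 31 and TUBA1A 53 among all genes. In SNP libraries they ranked 38, 109 and 186.

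In SNP libraries the order was TUBB (919 ± 2.38 TPM), TUBA1B (450.5 ± 3.55), TUBA1A (349 ± 28.4), TUBB2B (286 ± 5.74), TUBB4B (183 ± 14.8), TUBB3 (83.7 ± 7.81), TUBB2A (50.2 ± 15.5), TUBA1C (9.81 ± 0.624), TUBB6 (9.33 ± 0.846) and TUBA4A (0.314 ± 0.209). Here TUBA1C (9.37 and 10.25 TPM) and TUBB6 (9.93 and 8.73 TPM) overlapped and their order is not resolved. The summed exon length counts exons of every annotated transcript, for example 3574 bases for TUBA1B against 1627 in its coding transcript TUBA1B-202. Per kilobase of that single transcript TUBA1B was at 552 ± 24.3 CPM in control, above TUBB at 457 ± 50.2 CPM, so the order of the top pair depends on the length used. TUBB3 (85.4 ± 1.03), TUBB2B (78.1 ± 2.52) and TUBB4B (75.4 ± 5.07) also changed places on that scale, with values of TUBB2B and TUBB4B that overlapped.

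**Figure D2:**
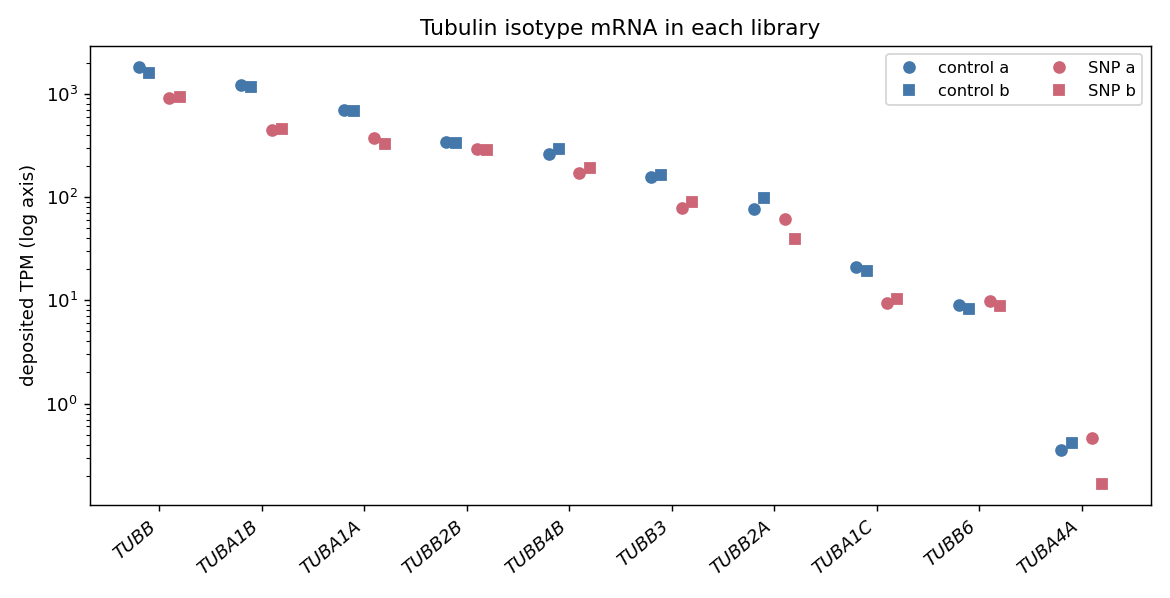
Deposited TPM of each isotype (log y axis) in every library, ordered by the control mean. Blue marks are control and red marks SNP libraries, circles replicate a and squares replicate b. The SNP marks lie below the control marks for TUBB through TUBA1C, and overlap with them for TUBB6 and TUBA4A.

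Together the 10 genes made up 0.459% and 0.434% of all TPM in control and 0.236% and 0.233% in SNP libraries. The summed level was 4467 ± 172 TPM in control and 2340 ± 21.5 TPM in SNP libraries, 1.91-fold lower and far outside the spread between replicates. On the CPM scale the sums were 3110 ± 175 and 1458 ± 57.5, a 2.13-fold difference. With 2 libraries against 2, the smallest p that an exact permutation test allows is 0.333 (two-sided), and both sums gave that value.

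The alpha pool fell further than the beta pool. Summed alpha genes went from 1920 and 1862 TPM in control to 827 and 792 TPM in SNP libraries, 2.33-fold lower. Summed beta genes went from 2669 and 2484 TPM to 1529 and 1533 TPM, 1.68-fold lower. The ratio of alpha to beta was 0.719 and 0.750 in control and 0.541 and 0.517 in SNP libraries, with no overlap (exact permutation p = 0.333, two-sided, the smallest possible). The ratio in TMM-scaled CPM moved in the same direction, from 0.840 ± 0.0322 to 0.621 ± 0.0221. Per kilobase of 1 coding transcript the ratio went from 1.147 ± 0.0285 to 0.826 ± 0.0288. Which pool was the larger in control therefore depended on the length used.

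Within the alpha pool the balance of deposited TPM moved from TUBA1B to TUBA1A, although both genes fell. The shares were not corrected for base composition, and the division of reads between these near-identical genes is uncertain. The rise in the TUBA1A share was 5.1 points without SNP library a and 8.3 points without SNP library b. TUBA1B held 62.9% and 62.2% of alpha TPM in control and 54.2% and 57.2% in SNP libraries. TUBA1A held 36.0% and 36.8%, then 44.6% and 41.5%. Neither pair of groups overlapped; each difference had an exact permutation p of 0.333, two-sided.

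Within the beta pool the balance moved from TUBB to TUBB2B. Both genes fell, TUBB from a mean of 1707 to 919 TPM and TUBB2B from 338 to 286 TPM. The shares were not corrected for base composition, which is described below. TUBB held 68.3% and 64.0% of beta TPM in control and 59.98% and 60.04% in SNP libraries. TUBB2B held 12.8% and 13.4%, then 19.0% and 18.4%. TUBB6 remained a minor part, at 0.340% and 0.3299% in control and 0.649% and 0.570% in SNP libraries. The shares of TUBB4B and TUBB2A overlapped between the groups. TUBB3 was at 5.90% and 6.58% in control and 5.115% and 5.82% in SNP libraries, a separation that was not seen on the CPM scale.

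**Figure D3:**
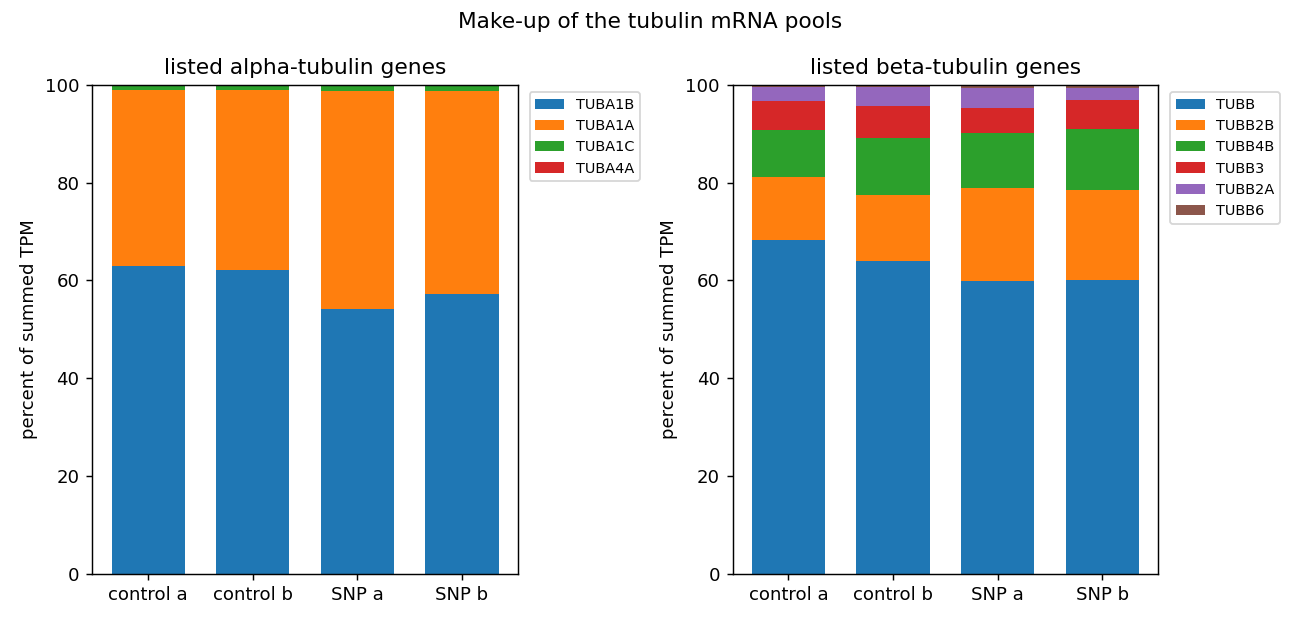
Share of each isotype in the summed TPM (y axis, percent, from 0) of the listed alpha genes (left) and beta genes (right) in each library. TUBA1B takes 62.9% and 62.2% of the alpha pool in control and 54.2% and 57.2% after SNP, while TUBB2B takes more of the beta pool in both SNP libraries.

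The difference between SNP and control followed base composition across all genes. Over 12567 genes (mean CPM of 4 or more), the Spearman correlation of the log2 fold change with guanine minus cytosine content was 0.551; genes within a library are not independent replicates. Most tubulin transcripts hold little guanine relative to cytosine. TUBB, with -2.87 percentage points, was at percentile 9.82 of the genes tested, TUBA1C at 19.3, TUBB2A at 20.9, TUBA1B at 22.6 and TUBA1A at 27.7. TUBB3, TUBB4B and TUBB6 were at percentiles 32.5, 36.2 and 38.6, and TUBB2B was at 53.7. The isotypes with the smallest differences, TUBB2B and TUBB6, were also those with the highest guanine relative to cytosine. The other isotypes did not all follow that order. TUBB, with the lowest content, was at a log2 fold change of -1.01, against -1.51 for TUBA1B. TUBB4B, next to TUBB6 in content, was at -0.71, against -0.0086 for TUBB6.

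With offsets that remove the trends on length, GC and guanine minus cytosine content, 6 of the 10 isotypes remained lower at the threshold, where 8.82% of all genes tested did. TUBA1B changed least in proportion among the alpha genes, to -1.29 (edgeR adjusted p = 9.2e-07). TUBB3 was at -0.95 (1.7e-05), TUBA1C at -0.93 (0.0042), TUBA1A at -0.91 (3.3e-05) and TUBB4B at -0.51 (0.0011), all adjusted p-values of edgeR. TUBB moved from -1.01 to -0.66 (edgeR adjusted p = 2.1e-04). TUBB2A and TUBB2B no longer passed, with -0.55 and -0.26 (edgeR adjusted p = 0.099 and 0.055).

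**Figure D4:**
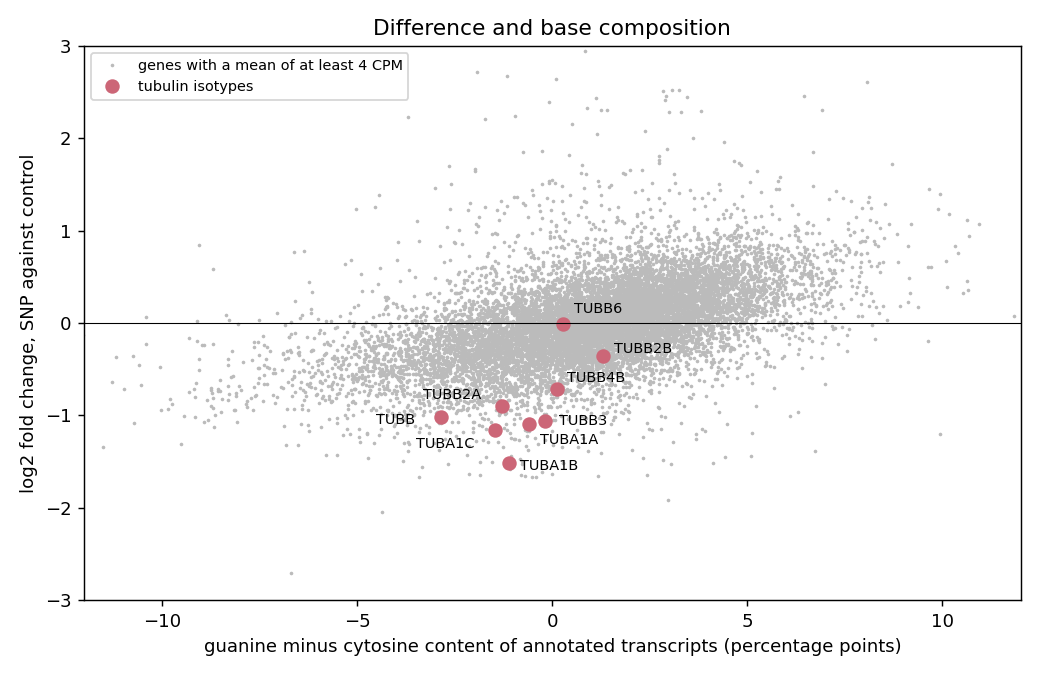
Log2 fold change, SNP against control (y axis), against guanine minus cytosine content of the annotated transcripts in percentage points (x axis) for 12567 genes (grey; 39 lie outside the axes) and the 9 tested isotypes (red). The grey cloud rises from left to right, TUBA1B lies lowest of the isotypes at -1.51, and TUBB farthest left at -2.87 points.

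Of the 20 genes with the codon orders shown above, 13 had enough counts to be tested. Of these, 10 were lower and 0 higher, beside 12.6% of all genes tested called lower. The 13 include the 9 tested isotypes described above, so most of this count repeats their result. Among the 4 tested genes outside the listed isotypes, 2 were lower. TUBA1A, TUBA1B, TUBA1C, TUBB, TUBB2A, TUBB2B, TUBB3 and TUBB4B account for 8 of the 10 lower genes. The remaining ones were TUBB4A, a beta isotype of brain, and TUBA3C, an alpha isotype of testis. TUBB4A was at 23.3 and 19.2 CPM in control and at 7.05 and 8.43 CPM in SNP libraries, a log2 fold change of -1.46 (SE 0.217; edgeR adjusted p = 5.1e-05). TUBA3C was counted 22 and 23 times without SNP and 6 and 10 times with it (log2 fold change -1.85, SE 0.503, edgeR adjusted p = 0.00952). The call of TUBA3C was lost without SNP library a or without control library b, and the division of reads with its near-identical copy TUBA3D, listed at 0, is uncertain. TUBB6, TUBA8 and MBTPS1 had the codons in at least some annotated transcript but did not pass. Their log2 fold changes were -0.0086, 0.54 and 0.14, and TUBA8 passed, and higher, only without control library b. Which transcripts of MBTPS1 were present was not tested.

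The tubulin genes outside the alpha and beta families were mixed. TUBG1, which encodes the gamma-tubulin that seeds microtubules, was lower, at 37.0 and 38.5 CPM in control libraries, against 21.0 and 18.9 CPM with SNP (log2 fold change -0.92, SE 0.158, edgeR adjusted p = 2.2e-04). TUBG2, TUBD1 and TUBE1 missed the threshold, at log2 fold changes of -0.39, -0.19 and -0.011. In all, 7 of 13 further tubulin genes were tested and 3 were lower (TUBA3C, TUBB4A and TUBG1), beside 12.6% of all genes tested. TUBA3D, TUBA3E, TUBAL3 and TUBA4B were listed at 0, and TUBB1 and TUBB8 had too few counts.

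Of the 3 genes of the autoregulation machinery, 1 passed the test, where 26.2% of all genes tested did. TTC5, which reads the nascent chain, was at 49.5 and 49.7 CPM in control and 45.3 and 42.3 CPM in SNP libraries (log2 fold change -0.18, SE 0.130, edgeR adjusted p = 0.336). CNOT11, which links the CCR4-NOT complex to tubulin mRNA, had a log2 fold change of -0.34 (SE 0.161, edgeR adjusted p = 0.124). SCAPER, the adaptor between them, was higher at 0.31 (SE 0.111, edgeR adjusted p = 0.0452), from 79.0 and 77.4 CPM to 98.6 and 94.8 CPM. Its call held in 5 of 14 alternatives and was lost without SNP library a, control library a or control library b.

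Folding of tubulin needs the chaperonin CCT, prefoldin and the tubulin cofactors. Of these 21 genes, all tested, 5 were higher and 0 lower, where 13.6% of all genes tested were higher; the median log2 fold change was 0.16. All 5 were CCT subunits, CCT2, CCT5, CCT6A, CCT7 and CCT8, and no cofactor or prefoldin gene passed. The remaining CCT genes TCP1, CCT3 and CCT4 missed the threshold, at log2 fold changes of 0.28, 0.0087 and -0.19. Alternative fits are given here for CCT6A and CCT8 only. CCT6A rose most, from 175 ± 0.589 to 293 ± 47.6 CPM (log2 fold change 0.75, SE 0.109, edgeR adjusted p = 4.2e-05), followed by CCT8 at 0.37 (SE 0.115, edgeR adjusted p = 0.0200). The call of CCT8 was lost without SNP library a, without control library b, and with the composition offsets, where its estimate was -0.044; CCT6A passed in all 14 alternatives, at 0.27 with those offsets.

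Enzymes that modify tubulin after its synthesis were tested for 23 of 24 genes, of which 4 were lower and 0 higher (median -0.23). Of all genes tested, 12.6% were lower and 13.6% higher. SIRT2, a tubulin deacetylase, was at -0.78 (SE 0.227, edgeR adjusted p = 0.0140), and TTLL4, an enzyme that adds glutamate to tails like those shown above, at -0.54 (SE 0.108, edgeR adjusted p = 9.0e-04). Neither passed with the composition offsets, and SIRT2 was also lost without SNP library a or control library b.

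Proteins that bind along microtubules or at their ends comprised 32 tested genes, of which 9 were lower and 2 higher (median -0.043). The shares over all genes tested were 12.6% lower and 13.6% higher. MAP1A, a neuronal microtubule-associated protein, fell to a log2 fold change of -0.68 (SE 0.114, edgeR adjusted p = 1.6e-04), and the end-binding gene MAPRE2 to -0.62 (SE 0.156, edgeR adjusted p = 0.00523). Its relative MAPRE1, encoding the end-binding protein EB1, rose by 0.59 (SE 0.108, edgeR adjusted p = 3.7e-04), and CAMSAP1, which binds minus ends, by 0.29 (SE 0.0947, edgeR adjusted p = 0.0291). MAPRE2 lost its call without control library b and with the composition offsets, and CAMSAP1 without SNP library a or either control library.

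Genes that destabilize or sever microtubules were lower in 5 and higher in 1 of 15 tested cases (median -0.00019). Among all genes tested 12.6% were lower and 13.6% higher. KIF18A, a kinesin that shortens microtubules in mitosis, was at -0.82 (SE 0.147, edgeR adjusted p = 3.0e-04). FIGNL1 was higher, at 0.36 (SE 0.116, edgeR adjusted p = 0.0260). The call of FIGNL1 was lost without SNP library a or either control library and with every offset tried.

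Of 18 genes of the gamma-tubulin ring and its recruiting complex, 3 were higher and 0 lower (median 0.0069). The share of all genes tested that were higher was 13.6%, and 12.6% were lower. HAUS3 was at 0.49 (SE 0.144, edgeR adjusted p = 0.0152) and TUBGCP6 at 0.39 (SE 0.128, edgeR adjusted p = 0.0283). HAUS3 lost its call without SNP library a or control library b and with the composition offsets, and TUBGCP6 without SNP library b or either control library.

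Over the 7 lists together, 12 genes were higher and 21 lower of 119 tested, a share of calls like that of all genes tested (26.2%).

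**Figure D5:**
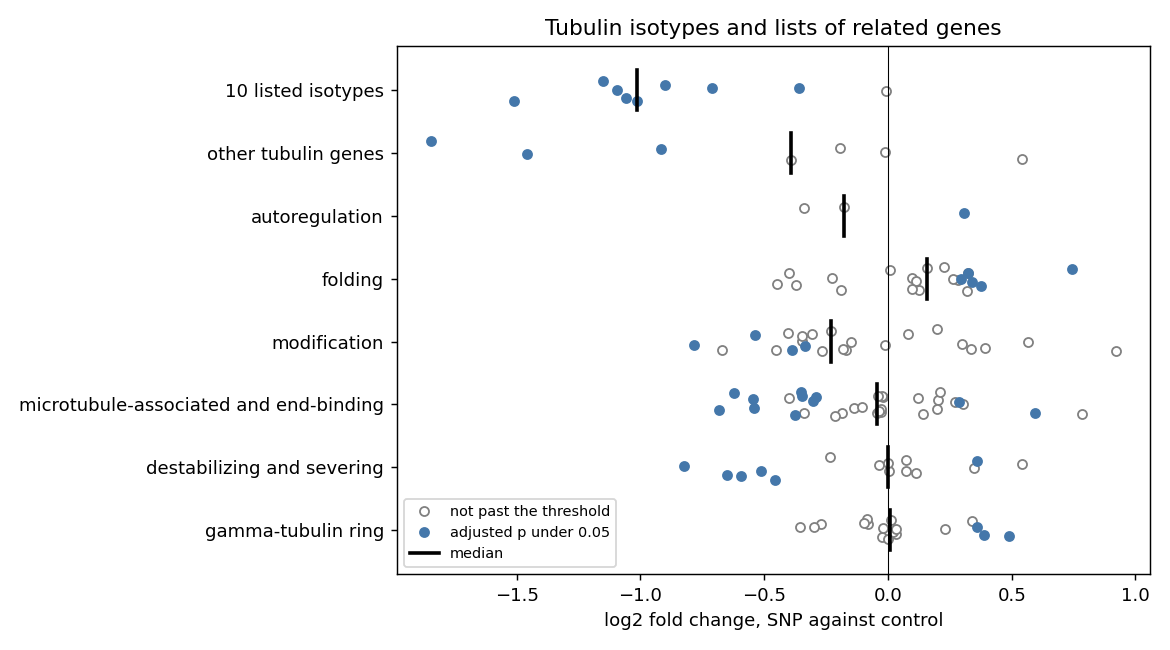
Log2 fold change, SNP against control (x axis), of each tested gene in the 10 listed isotypes and in 7 lists of related genes (rows). Filled points had an adjusted p under 0.05 in edgeR and black bars are medians. The isotypes have a median of -1.01, the other tubulin genes one of -0.391, and the other 6 lists medians between -0.23 and 0.16.

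The genes whose profile over the 4 libraries was nearest to that of the summed isotypes were MT-CO1, PLD5 and TENM4, among 4972 genes averaging 50 CPM or more. Likeness was the Euclidean distance of centred log2 CPM, 0.0336, 0.147 and 0.161 in that order. MT-CO1 is a mitochondrially encoded subunit of cytochrome oxidase, and TENM4 a teneurin of the neuronal surface. With 4 libraries in 2 groups, such a distance mostly measures the size of the difference between the groups.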

How the data were processed

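RNA of 4 libraries was analysed, 2 of control and 2 of SNP-treated SH-SY5Y cells, grouped by their titles, with the agent from the characteristics; nothing says that libraries came from separate cultures, so p-values measure the spread between these libraries. Per the submitters' processing notes the build was GRCh38; aligner, counter and annotation are not given in the sources used here. The authors deposited whole-number counts per gene without normalization, TPM scaled to the same total in every library, and RPKM. The RPKM values deposited by the authors gave, with the counts, the length used for each gene, which equalled the merged exon length in GENCODE 29 for all 10 members; 57980 of 58243 identifiers were found there.

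Counts were tested with edgeR 4.0.16 in R 4.3.3 (filterByExpr with a minimum count of 10 and a minimum total of 15, TMM, quasi-likelihood, no covariate), and p-values were adjusted by Benjamini-Hochberg across the 14759 tested genes, with a threshold of 0.05. CPM are TMM scaled. Standard errors came from the fold change and the F statistic. Alternatives used DESeq2 1.42.0, limma 3.58.1, other scalings and filters, offsets from lowess curves (span 0.5, 3 iterations), the replicate letter, and each library left out. Scripts were tested on simulated counts. Replicates differed by more than counting noise (chi-square per degree of freedom of 2.91 in control and 4.75 in SNP libraries).

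All 10 members were named, with TTC5, SCAPER, CNOT11, the tested further tubulin genes, up to 2 rising and 2 falling genes per list at a mean of at least 5 CPM, genes sharing exons with a member, and the 3 nearest profiles. Members and lists were chosen with earlier results of these data known. MBTPS1, the further CCT subunits, the single marker genes and the genes used for sequence examples were named after their values were seen. FAM166A, AC125611.3 and AL662797.1 share exons with TUBB4B, TUBA1C and TUBB in that order, and had at most 5 counts in any library. Sequences are from GENCODE 29 transcripts. A gene that the naming rule picked and 1 sequence are not reported here.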

Additional observations from a re-analysis of the deposited data

How the results depend on the processing

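TUBA1A, TUBA1B, TUBA1C, TUBB, TUBB3 and TUBB4B kept their direction and an adjusted p under 0.05 in all 14 alternative fits; TUBA1B ranged from -1.56 to -1.29 and TUBB from -1.12 to -0.66. TUBB2A passed in 13 of them and TUBB2B in 8, the latter failing also with read totals implied by RPKM in place of count totals and no TMM (-0.29). TUBB6 ranged from -0.14 to 0.11 and passed in none. The number of isotypes called lay between 6 and 8. The 3861 genes called numbered 2415 under the Wald test of DESeq2, and 2224 when 0.01 was the threshold; leaving out 1 library gave 2447 to 4144. The 33 calls in the lists of related genes became 19 with the composition offsets and 17 at an adjusted p under 0.01; leaving out 1 library gave 16 to 39. With those totals and no TMM, 2 choices changed together, 63.2% of calls were higher, against 51.9%. The log2 ratio of the summed level was -0.93 in TPM, -1.09 in CPM and -1.12 per kilobase of 1 coding transcript, the last an alternative chosen after seeing the data. The change in the TUBB2A share, -0.127 points, was 0.397 without control library b and 0.593 without SNP library b, in a range of -0.847 to 0.593 over the 4 omissions; the cause was not tested.

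In a fit with the letters a and b as a replicate block, 8 isotypes and 4487 genes were called, and no isotype's call changed; same-lettered libraries deviated together with a correlation of 0.0443, so the letters are not taken as pairs. With length and GC offsets, 7 isotypes passed with and without that block, TUBB2B being at -0.21 in both fits. Depth limits TUBA4A, TUBB6 and TUBA3C.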
